A study of Mus musculus with 12 samples.

Results

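The genes described here are 10 members of the Notch pathway: the receptors Notch1, Notch2, and Notch3, the ligands Dll1, Jag1, and Jag2, the target genes Hes1, Hes5, and Hey1, and Numb, an inhibitor of Notch signalling. They were chosen by name, and every peak whose nearest gene is a member in the deposited tables was used, which gave 28 of 55085 peaks of 5mC and 40 of 47478 peaks of 5hmC, together 68 peaks. All 10 members had a peak, Dll1 in 5mC only, Hes5 in 5hmC only, and 8 members in both marks. The cells came from the cortex of Btg2-RFP/Tubb3-GFP double heterozygous mouse embryos at E14.5 and were sorted into 3 populations, namely PP (Btg2-/Tubb3-, the neural stem cells), DP (Btg2+/Tubb3-, the neurogenic progenitors), and neurons (Tubb3+). DNA enriched with an antibody against 5mC (MeDIP) or 5hmC (hMeDIP) was sequenced beside an untreated input. The labels list 12 samples, 6 IP and 6 input, with 1 IP per cell type and mark, and do not separate the 3 replicates that the methods state. The DNA of the cell types was barcoded and mixed before the pull-down. The reporters alone defined the populations, and PP, being negative for both, could hold any cell without a reporter.

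Notch is a receptor that is cleaved when a Delta or Jagged ligand on a neighbouring cell binds it, and its intracellular part then enters the nucleus and activates Hes and Hey genes through the DNA-binding protein Rbpj. Hes proteins repress proneural genes, and in the embryonic cortex this keeps radial glia in a progenitor state, while cells that commit to neurogenesis present Delta ligands to their neighbours. 5mC is the methylated cytosine and 5hmC the product of its oxidation by Tet enzymes.

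Every level below is log2 of the mean normalised read number of a peak in a cell type, averaged by the authors over their replicates. From these means no error can be given, no difference between cell types could be tested, and the read depth behind a level is unknown. The authors' own p-values between cell types were not used. Over all peaks, the median 5mC level was 5.06, 5.05, and 4.87 in PP, DP, and neurons, and the median difference of neurons was -0.18 from DP and -0.17 from PP. For 5hmC these differences were -0.023 and -0.081. Differences at single peaks are therefore given relative to the median difference of all peaks of the mark, and a peak was counted as higher or lower when this relative difference reached 1.5-fold, or 0.58 on the log2 scale. A gain or a decrease below is such a difference between mean values and not a tested change. The first step is that from PP to DP and the second that from DP to neurons. Expression of each gene was taken by the authors from their earlier RNA-seq of these populations, its scale is unnamed, and it is compared within a gene and not between genes. In such bulk values, fewer cells of a type and less RNA per cell cannot be told apart. In those values the 6 markers of PP (such as Sox2 and Pax6) were all highest in PP, the 4 markers of DP (such as Eomes) in DP, and the 5 markers of neurons with a value (such as Dcx) in neurons. The PP markers include Hes5, itself a member, and those of DP and neurons include Btg2 and Tubb3, whose reporters defined the sort. For these genes the result is no independent check of identity. The markers of other cells with a value, 8 in all, summed to 1580, 1889, and 5443 in PP, DP, and neurons. By single marker, however, 5 (Pecam1, Cldn5, Csf1r, Pdgfra, and Col1a1) were highest in PP, 1 in DP, and 2 in neurons. None of the 8 was at 0, the neuronal sum was mostly the interneuron genes Gad1 (3055) and Dlx2 (2227), and their part in the values below was not tested.

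The expression of the pathway was lower in neurons than in PP for 8 of the 10 members, each by at least 2-fold, whereas Jag2 was higher and Dll1 was highest in DP. Of the 16046 genes with expression above 0 in PP and neurons, 23.4% were lower in neurons by at least 2-fold and 21.7% were higher. Hes1, a repressor of proneural genes, had an expression of 4992, 2620, and 29.5 in PP, DP, and neurons, which is 169-fold lower in neurons than in PP. Hes5, a second repressor of this family, stood at 11222, 7568, and 89.3, or 126-fold lower. Hey1, a related target, was lower by 3.51-fold, with 6772, 4480, and 1927. The steep difference for Hes1 and Hes5 lay between DP and neurons, where they differed 88.8-fold and 84.7-fold, whereas PP and DP differed 1.91-fold and 1.48-fold.

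The receptors followed the same course. Notch1 expression was 62846, 41682, and 1060 in PP, DP, and neurons (59.3-fold lower than in PP). Notch2 was at 38237, 16651, and 1155 (33.1-fold lower). Notch3 was at 19227, 8191, and 177 (109-fold lower), and 0.523% of all genes had a lower ratio of neurons to PP. Among the ligands, Dll1 expression was 2.19-fold higher in DP than in PP, with 8062, 17643, and 9312 in PP, DP, and neurons. Jag1 was at 2040, 660, and 538, and its main difference of 3.09-fold lay between PP and DP. Jag2 was at 287, 283, and 1663, that is, 5.87-fold higher in neurons than in DP. Numb, which antagonises the receptor, was at 2225, 2377, and 1079. These values carry no replicate error either.

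**Figure D1:**
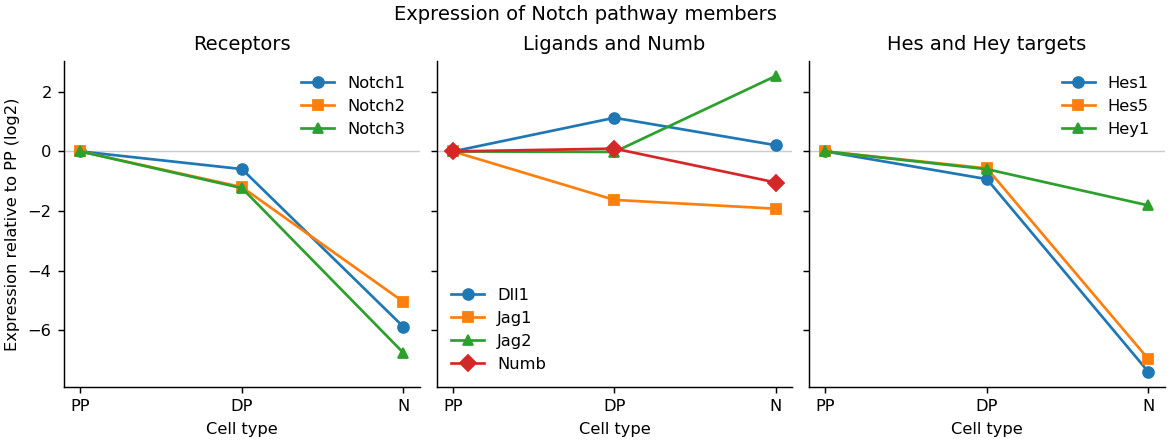
Expression of the 10 members relative to PP (vertical axis, log2 of the authors' expression value over that in PP) in PP, DP, and neurons (N, horizontal axis), with 1 line per gene. Hes1, Hes5, and the receptors stand between -5.05 and -7.40 in neurons, Jag2 is 2.54 above, and Dll1 is highest in DP; points are means without error bars.

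At the level of DNA, 5mC at these genes differed little between cell types and 5hmC differed more, as was also the case over all peaks. From PP to DP, 0 of the 28 5mC peaks were higher and 1 was lower, where 4.60% and 5.44% of all 5mC peaks were. From DP to neurons 0 were higher and 2 lower (5.12% and 9.36% of all 5mC peaks), and between PP and neurons 1 was higher and 3 were lower (5.00% and 10.2% of all). The 5mC shares of the members were thus near or below those of all peaks, and the median relative change from PP to neurons was -0.052. Without centring on the median peak, 6 instead of 2 5mC peaks were lower in neurons than in DP.

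Of the 40 5hmC peaks, 4 (10.0%) were higher and 1 (2.50%) lower in DP than in PP, against 11.2% and 4.68% of all 5hmC peaks. From DP to neurons 7 (17.5%) were higher and 7 lower, against 16.5% and 7.07%. Between PP and neurons 12 (30%) were higher and 6 (15.0%) lower, against 22.1% and 7.71%. The median relative change from PP to neurons was 0.069, and it was -0.012 without centring. The members were thus spread to both sides, and the sides differed by position. Of 21 5hmC peaks that the tables place inside a member, 16 had a positive relative change from PP to neurons and 11 were higher by at least 1.5-fold, with 1 lower. Of these 16, the peaks 9307 bp into Notch3 and 71.2 kb into Numb had a negative change without centring. Of the 19 outside, 7 had a positive change, 1 was higher, and 5 were lower. Over all 5hmC peaks, 55.5% of those inside and 46.9% of those outside a gene had a positive change, with 26.7% and 19.5% higher and 7.19% and 8.0% lower by at least 1.5-fold. The division by position was made after the values were seen and was not tested.

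**Figure D2:**
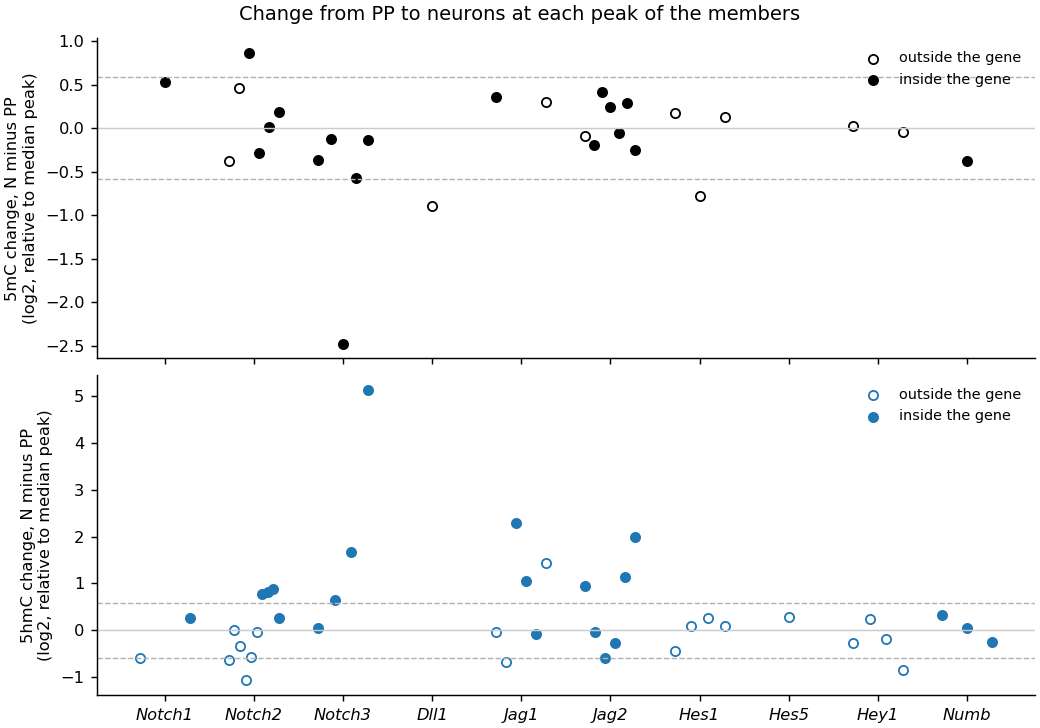
Relative change from PP to neurons (vertical axis, log2 level in neurons minus PP, relative to the median peak of the mark) at each peak of the 10 members (horizontal axis, peaks of a gene ordered by their distance to its start), 5mC above and 5hmC below. Filled points lie inside the gene and open points outside by the deposited annotation, and dashed lines mark 1.5-fold. Of the 5mC peaks, 1 inside Notch3 stands at -2.48, and 5hmC stands above the upper line mainly at filled points of Notch2, Notch3, Jag1, and Jag2.

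Notch3 held the largest single relative change from PP to neurons of the members in each mark, -2.48 in 5mC and 5.14 in 5hmC. The 5hmC value is of a peak whose PP level is the lowest of all 5hmC peaks. The next 5hmC change of Notch3 (1.67) was below the largest of Jag1 (2.30) and of Jag2 (2.00). The Notch3 receptor is made by progenitors and by cells of the vessel wall, and its gene spans 32120820 to 32166896 of chromosome 17 (mm10). All 5 of its 5mC peaks and all 4 of its 5hmC peaks lay inside the gene, the former all with a lower and the latter all with a higher relative level in neurons than in PP, although for the 5hmC peak at 9307 bp the sign turned without centring. Of the markers of vessels and of connective tissue, which can accompany Notch3, Pecam1 had an expression of 78.7, 26.5, and 25.0 and Col1a1 of 463, 50.6, and 28.2 in PP, DP, and neurons, and the part of such cells was not tested. The 5mC peak at chr17:32146875-32147001, 19942 bp from the start, had a level of 4.81, 4.24, and 2.16 in PP, DP, and neurons. Its relative change was -0.56 in the first step and -1.91 in the second, and only 299 of the 55085 5mC peaks had a change as low or lower from PP to neurons (-2.48). The mean level of this 5mC peak was low, above only 2.65% of all 5mC peaks. The 5hmC peak that overlaps it (chr17:32146813-32146947) had a level of 4.51, 4.83, and 5.07 in PP, DP, and neurons, a relative gain of 0.64 (0.56, and so under 1.5-fold, without centring). The levels of the marks thus ran in opposite directions in every step at this locus.

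A second pair lay next to it, further into the gene. Its 5mC peak (chr17:32146352-32146508) had a level of 4.32, 4.03, and 3.58 in PP, DP, and neurons, with a relative change of -0.57 from PP to neurons, just short of 1.5-fold. The overlapping 5hmC peak (chr17:32146464-32146606) had a level of 3.20, 3.70, and 4.79, a relative gain of 0.50 in the first step and 1.12 in the second. Its mean level was above only 7.82% of all 5hmC peaks. Here again 5hmC was highest, and 5mC lowest, in neurons.

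The 5hmC peak furthest into Notch3, at chr17:32141041-32141191 and 25764 bp from the start, had a level of -0.051, 2.97, and 5.00 in PP, DP, and neurons. Only 19 of 47478 5hmC peaks had a relative change from PP to neurons (5.14) as high or higher. The PP level is the lowest of the whole 5hmC table and is shared by 105 peaks, so it marks the floor of the scale and the size of the gain depends on it. The 5mC peak beginning after a gap of 5 bp (chr17:32141197-32141344) had a level of 6.26, 6.24, and 5.96 and a relative change of only -0.14. It was the highest of the 5mC peaks of Notch3, above 86.9% of all 5mC peaks. This gain of 5hmC therefore had no loss of 5mC of similar size beside it, and both peaks also lie within Gm41568, a gene that overlaps Notch3 in RefSeq.

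The remaining peaks of Notch3 differed less. The 5mC peaks 12978 bp and 6302 bp from the start had relative changes of -0.12 and -0.37 from PP to neurons, the latter with -0.55 between PP and DP and 0.19 between DP and neurons. The 5hmC peak 9307 bp from the start had a level of 4.35, 4.51, and 4.31. The pronounced differences were thus limited to a stretch between 19.9 and 25.8 kb from the start, as seen in the plot of levels along Notch3.

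**Figure D3:**
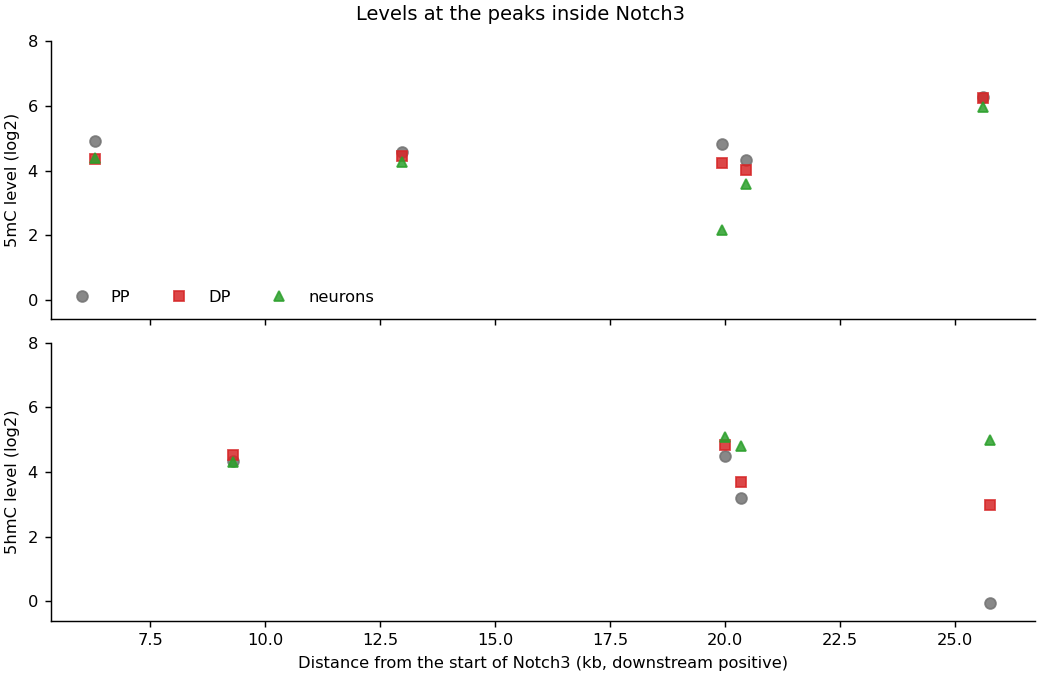
Level of 5mC (top) and 5hmC (bottom) at the peaks inside Notch3 (vertical axes, log2 of the authors' mean normalised reads) against their distance from the start of the gene (horizontal axis, kb), in PP (grey circles), DP (red squares), and neurons (green triangles). Near 20 kb 5mC is lowest and 5hmC highest in neurons, and at 25.8 kb 5hmC goes from -0.051 in PP to 5.00 in neurons while the adjoining 5mC peak stays near 6; no error is available.

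None of the 5mC or 5hmC peaks overlapped the promoters of the members in the RefSeq promoter table (GRCm38.p6, the assembly also called mm10), which holds 11 windows for 8 of the members. The nearest peak to any of these windows was a 5hmC peak 2027 bp from that of Jag2. The 250 bases before the start held between 3 and 54 CpG dinucleotides in the members, against a median of 6 over 32851 windows. Since peaks that overlap repeats or were missing from a replicate are not in the tables, a window without a peak is not one shown to be free of the mark. The sequences upstream of the 3 receptor genes, whose expression was lower in neurons together, are shown from 5′ to 3′ on the strand of the gene, with each CpG in capitals and with 16, 34, and 17 of them, respectively.
Notch1, chr2:26503823-26504072, minus strand: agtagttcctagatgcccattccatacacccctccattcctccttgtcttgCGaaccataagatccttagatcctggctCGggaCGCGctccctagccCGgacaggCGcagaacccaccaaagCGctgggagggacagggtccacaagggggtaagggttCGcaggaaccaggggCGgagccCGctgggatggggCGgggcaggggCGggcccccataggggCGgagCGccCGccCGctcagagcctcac
Notch2, chr3:98013288-98013537, plus strand: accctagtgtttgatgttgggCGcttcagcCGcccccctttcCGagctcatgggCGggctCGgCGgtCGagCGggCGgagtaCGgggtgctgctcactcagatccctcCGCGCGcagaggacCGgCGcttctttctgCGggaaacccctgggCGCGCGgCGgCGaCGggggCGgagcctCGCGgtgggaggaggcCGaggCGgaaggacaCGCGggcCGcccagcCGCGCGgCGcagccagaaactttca
Notch3, chr17:32166897-32167140, minus strand: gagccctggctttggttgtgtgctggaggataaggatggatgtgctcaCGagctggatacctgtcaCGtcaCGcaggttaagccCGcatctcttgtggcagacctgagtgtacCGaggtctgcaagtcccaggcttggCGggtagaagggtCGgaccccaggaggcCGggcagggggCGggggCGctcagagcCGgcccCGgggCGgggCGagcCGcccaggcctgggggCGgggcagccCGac
The core sequence bound by Rbpj, TGGGAA, read on both strands, was absent from the printed sequences and present at 2 places in the 250 bases before the Hes5 start used for its window. It was found in 21.6% of all windows of 250 bases, and a match of these letters does not show a bound site. The Hes5 window (chr4:154960673-154960972) lies within the RefSeq gene span, which begins at 154960626. The Jag2 window and some of those of Dll1 and Numb also lie within their gene spans.

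Notch2 (chr3:98013538-98150367) had the most 5hmC peaks of the members, and they differed by side of its start. All 4 peaks inside the gene had a higher relative level in neurons than in PP (between 0.27 and 0.87), and 3 of them passed 1.5-fold. Of the 6 peaks upstream of the start, 5 had a lower relative level in neurons, and 2 of them by at least 1.5-fold. The highest, 59.6 kb inside the gene, had a 5hmC level of 5.66, 5.63, and 5.84 in PP, DP, and neurons. The peak 54.6 kb from the start had 4.98, 5.42, and 5.77, and the one 22.4 kb from the start had 3.92, 4.07, and 4.60, the largest gain of Notch2 from DP to neurons (0.55).

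The upstream peaks of Notch2 took the opposite course. The peak 20.4 kb upstream had a 5hmC level of 5.88, 5.37, and 4.73 in PP, DP, and neurons, with a relative change of -1.07, the strongest 5hmC decrease of all members over both steps. The peak 5.96 kb upstream had 3.84, 4.39, and 3.19, so it was highest in DP and had both the largest gain of Notch2 from PP to DP (0.56) and the largest decrease from DP to neurons (-1.18). The peak 29.1 kb upstream had the lowest relative change from PP to DP (-0.56), with 4.43, 3.86, and 4.01. The peak 41.3 kb upstream had 4.66, 4.57, and 3.96.

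In 5mC, Notch2 had 6 peaks, none overlapping its 5hmC peaks. The peak 57.4 kb inside the gene had a 5mC level of 3.93, 4.45, and 4.62 in PP, DP, and neurons, and its relative change of 0.87 was the only 5mC gain of at least 1.5-fold between PP and neurons among the members. The peak 26.7 kb upstream had 4.45, 3.70, and 3.89, the only 5mC peak of the members that was lower by 1.5-fold from PP to DP (-0.75). The peak 18.4 kb upstream had 4.05, 4.63, and 4.35, a relative change of 0.58 in the same step that remained just under 1.5-fold. From DP to neurons the relative changes of all 6 lay between -0.12 and 0.37, and the highest peak, 71.7 kb from the start, had 5.23, 5.17, and 5.25.

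Notch1 (chr2:26457902-26503822) carried few peaks. Its 5mC peak at chr2:26513512-26513631 had a level of 5.56, 5.57, and 5.92 in PP, DP, and neurons, a relative gain of 0.53. The 5hmC peak at chr2:26508543-26508792 had 4.61, 4.01, and 4.80, with a relative change of -0.60 in the first step and of 0.82 in the second. The 5hmC peak at chr2:26519804-26519973 had 4.30, 4.58, and 3.62, a relative change of -0.93 in the second step. The 5mC peak and the first 5hmC peak are listed inside Notch1 in the deposited tables, whereas the RefSeq gene ends at its start, 26503822, so that they lie 9690 bp and 4721 bp upstream of it there. The choice of the gene start thus decides whether Notch1 has a peak inside the gene.

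Jag1 (chr2:137081451-137116520), a ligand of the Jagged type, gained 5hmC from PP to neurons at 2 of its 3 inside peaks and at 1 peak just downstream. Its expression was lower in DP and neurons than in PP. The 5hmC peak 25.7 kb from the start (chr2:137090879-137091032) had a level of 2.21, 4.15, and 4.43 in PP, DP, and neurons, and only 570 of all 5hmC peaks had as high a relative change from PP to DP (1.94). Its mean level of 3.60 was low, above only 3.94% of all 5hmC peaks. The peak 27.5 kb from the start had 3.67, 4.26, and 4.63, with a relative change of 0.59 and then 0.40. The peak 35.6 kb from the start, downstream of the gene by 285 bp and within Slx4ip in RefSeq, had 3.28, 3.61, and 4.63 and gained mainly from DP to neurons (1.04). Far upstream, the peak at 70.2 kb had 4.49, 4.40, and 3.73, a relative change of -0.65 in the second step, and the highest 5hmC peak, at 85.9 kb, had 5.70, 5.73, and 5.59. Jag1 also had the only shared locus outside Notch3 among the members, 33.4 kb from the start and so between the peaks with gains. There the 5mC peak (chr2:137083141-137083357) had 4.53, 4.54, and 4.71 and the 5hmC peak over nearly all of it had 5.07, 5.04, and 4.90. Neither mark differed there by 1.5-fold. The other 5mC peak of Jag1, 82.3 kb from the start and within Slx4ip, had 4.78, 5.08, and 4.91.

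Jag2 (chr12:112907803-112929812), the member with higher expression in neurons, gained 5hmC at 3 of its 6 peaks from PP to neurons by at least 1.5-fold and showed no 5mC difference of this size at 7 peaks. The 5hmC peak 16.0 kb from the start (chr12:112913452-112913601) had a level of 2.76, 3.78, and 4.68 in PP, DP, and neurons, with relative changes of 1.02 and 0.92. Its mean level was above only 5.34% of all 5hmC peaks. The peak at 13.3 kb had 5.08, 5.27, and 6.13. The peak nearest to the start, at 2165 bp, had 4.21, 4.02, and 5.08, so its gain of 1.09 came in the second step. Between them lay 3 peaks, from 10.1 to 10.7 kb from the start, without a gain. The highest of these had 6.16, 5.72, and 5.49, a relative change of -0.59 from PP to neurons, and the peak at 10.7 kb had 4.72, 4.98, and 4.36, -0.59 in the second step. The 5mC peaks of Jag2 included the highest of the members, 15.1 kb from the start, with 7.20, 7.33, and 7.27, above 98.2% of all 5mC peaks. The relative 5mC changes of Jag2 from PP to neurons lay between -0.25 and 0.42 at all 7 peaks. In the single steps they were at most 0.51 (4149 bp from the start, from DP to neurons) and at least -0.43 (2813 bp from the start, same step).

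**Figure D4:**
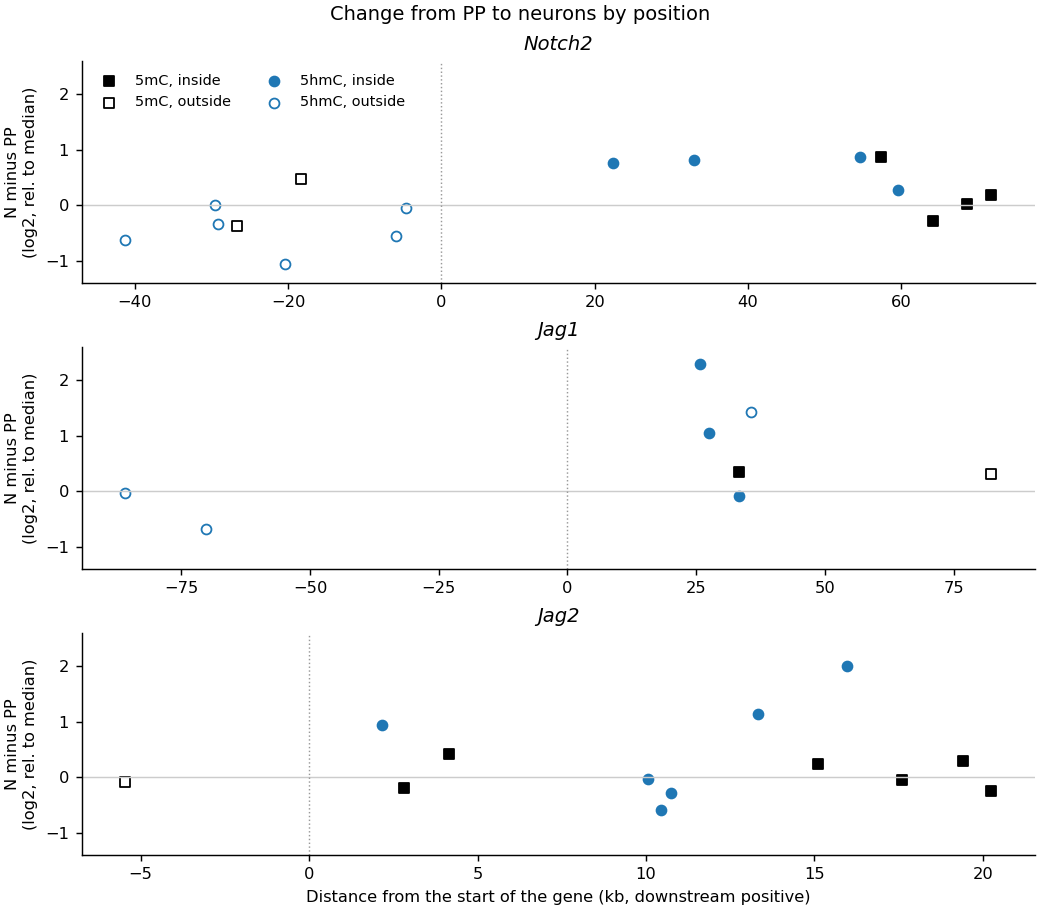
Relative change from PP to neurons (vertical axes, log2, relative to the median peak) against the distance from the start of Notch2, Jag1, and Jag2 (horizontal axes, kb, with the start as a dotted line), for 5mC (black squares) and 5hmC (blue circles), filled inside and open outside the gene. In Notch2 the 4 inner 5hmC peaks lie above 0 and the upstream ones between -1.07 and 0.0071, and in Jag2 the gains at 2.2, 13.3, and 16.0 kb flank peaks at or below 0.

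Dll1 (chr17:15367354-15376932), the Delta ligand of committing progenitors, had a single 5mC peak, 6147 bp upstream of its start (chr17:15382912-15383126). Its level was 4.79, 4.37, and 3.73 in PP, DP, and neurons, with relative changes of -0.42 and -0.47 that together reached -0.89. The decrease therefore went through both steps, whereas expression was highest in DP and similar in PP and neurons.

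Hes1 and Hes5, whose expression differed most, and Hey1, which differed less than the receptors and Jag1, showed few differences in either mark, and none of their 14 peaks lay inside the genes, which are short. Of the 3 5mC peaks of Hes1 (chr16:30065357-30067796), the one 15.4 kb upstream (chr16:30048966-30049100) had a level of 4.44, 4.55, and 3.49 in PP, DP, and neurons, a relative change of -0.88 from DP to neurons, the step with the larger difference in expression. The other 5mC peaks, 17.2 kb upstream and 37.6 kb downstream, had 4.24, 4.45, and 4.25, and 5.55, 5.70, and 5.51. The 4 5hmC peaks of Hes1, all downstream, had relative changes from PP to neurons of -0.44, 0.10, 0.26, and 0.10 from the nearest to the farthest. The nearest, 12.9 kb from the start, had 4.53, 4.09, and 4.02, and the highest, 17.0 kb from the start, had 5.09, 5.15, and 5.11. Hes5 (chr4:154960626-154962372) had a single 5hmC peak 5488 bp upstream, with 5.24, 5.11, and 5.45 and a relative change of 0.29 from PP to neurons.

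Hey1 (chr3:8663359-8667038) had 4 5hmC peaks, each with a lower relative level in neurons than in DP. The peak 67.3 kb from the start, downstream, had 4.76, 4.46, and 3.82 and was the only one past 1.5-fold between PP and neurons (-0.85). The others had 5.87, 5.99, and 5.59 at 40.8 kb, 4.34, 4.58, and 4.51 at 1651 bp upstream, and 4.83, 4.79, and 4.49 at 2577 bp upstream. The peak at 1651 bp was the nearest of all 68 to a gene start, and 1 of the 40 5hmC peaks (2.50%) lay within 2 kb, compared with 6.63% of all 5hmC peaks. The 5mC peaks of Hey1 had 6.76, 6.57, and 6.54 (67.1 kb downstream) and 3.56, 4.06, and 3.41 (2899 bp upstream). The latter was thus highest in DP, with relative changes of 0.51 and -0.48.

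Numb (chr12:83794034-83921942), whose protein is inherited unequally by dividing progenitors and restrains Notch, had 1 5mC and 3 5hmC peaks, all inside the gene and none past 1.5-fold. Its 5mC peak had a level of 3.93, 3.99, and 3.38 in PP, DP, and neurons. Its 5hmC peaks had 4.30, 4.47, and 3.97 (76.2 kb from the start), 5.99, 5.84, and 5.95 (71.2 kb), and 4.26, 4.72, and 4.51 (39.5 kb). The peak at 71.2 kb had the highest mean 5hmC level of the members, above 92.9% of all 5hmC peaks.

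Peaks of both marks overlapped at 3 loci of the members, the pair in Notch3 and the locus in Jag1, which is 10.7% of their 5mC and 7.50% of their 5hmC peaks. Over all peaks the shares were 12.2% and 14.2%. Set beside expression, receptors and Jag1 with lower expression in neurons (Notch2, Notch3, Jag1) had 5hmC gains of at least 1.5-fold inside the gene from PP to neurons, and so had Jag2 with higher expression. Numb and Notch1, also with lower expression, had inside peaks without such a gain (-0.25 to 0.34 in Numb and 0.27 in Notch1). The Notch1 peak is inside by the deposited annotation only, and its change was -0.60 in the first step and 0.82 in the second. Gains of 5hmC inside a gene thus occurred among members with either direction of expression, and not in all with lower expression.

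For other genes of the pathway a list of 45 was used, of which 36 had a peak. Among their 136 5hmC peaks, at 31 genes, 44 (32.4%) were higher and 9 (6.62%) lower in neurons than in PP by at least 1.5-fold, against 22.1% and 7.71% of all 5hmC peaks, and the median relative change was 0.22. Among their 134 5mC peaks, at 32 genes, 7 (5.22%) were higher and 14 (10.4%) lower, near the 5.00% and 10.2% of all 5mC peaks, with a median of -0.018. Expression was at least 2-fold higher in neurons than in PP for 9 and lower for 8 of the 36, where 21.7% and 23.4% of all genes were, so the list was near the background.

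Among the ligands of that list, Dll3 had a 5hmC peak 1892 bp inside the gene with 0.99, 2.66, and 4.93 in PP, DP, and neurons, and a 5mC peak at 1868 bp with 4.50, 5.32, and 3.32. Its expression was 281, 1689, and 901. Lfng, which modifies Notch receptors with sugar, was the listed gene with the lowest ratio of neurons to PP, with an expression of 6078, 3165, and 31.2, and a 5hmC peak 1.32 kb upstream gained 2.18 in relative terms from PP to neurons. Rbpj, the nuclear partner of Notch, had similar expression throughout (4390, 5591, and 3870) and a 5hmC peak 64.9 kb inside the gene with 2.34, 2.52, and 4.83. In Maml3, a coactivator of that complex, the 5hmC peak 61.8 kb from the start had 1.36, 2.62, and 5.26 and the 5mC peak at 61787 bp had 4.23, 4.04, and 2.29. Of the Maml3 5hmC peaks that differed at least 2-fold, the one 35.4 kb upstream was lowest in neurons, with 4.66, 4.44, and 3.11. The others were highest in neurons.

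Numbl, a relative of Numb, had 5hmC peaks at 1918, 2489, and 3997 bp from its start with relative gains of 1.63, 1.52, and 2.15 from PP to neurons, while its expression was 2833, 7384, and 6980. Hes6, which opposes Hes1, had a 5hmC peak at 2466 bp with 2.15, 3.85, and 5.01 and an expression of 4444, 11740, and 3803. Dtx1, a regulator of Notch traffic, had relative 5hmC gains between 1.05 and 1.53 at 4 peaks and an expression of 794, 1527, and 10144. In Numbl, Hes6, and Dtx1 the 5hmC level was highest in neurons at each of these peaks. They were picked for a change of at least 2-fold, so this does not describe other peaks of these genes.

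Peaks that differed at least 2-fold in a step or from PP to neurons were further found at Adam10, Dlk1, Maml2, Mfng, Neurl1a, Neurl1b, Snw1, and Spen. The glycosyltransferase gene Mfng had its highest expression in DP (2648, 10833, and 1496) and a 5hmC peak 12038 bp inside the gene with 4.30, 5.15, and 6.20. Another 5hmC peak of Mfng, 18.7 kb from the start, was highest in DP with 3.85, 4.96, and 4.06, and its 5mC peak 7.14 kb upstream was lowest in DP with 4.31, 3.20, and 4.30. Neurl1b, a ubiquitin ligase of Notch ligands, had a 5mC peak 62.7 kb upstream with 5.55, 2.89, and 4.62, so its level was lowest in DP. At Maml2, a coactivator, the 5mC peak 36.9 kb upstream had 4.44, 2.91, and 2.72. The 5hmC peak of Snw1, 15.7 kb upstream, had 4.31, 3.72, and 3.14.

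By expression, Lfng, Nrarp, Hey2, Maml2, Notch4, Dtx4, Dlk1, and Adam17 were lower in neurons, and Psen2, Numbl, Dll3, Aph1b, Neurl1b, Neurl1a, Dner, Dtx1, and Dlk2 were higher. Nrarp, a feedback inhibitor that Notch induces, had 7703, 6356, and 453. Dner, a Notch ligand of neurons, had 677, 523, and 7153. Hey2 had 413, 695, and 37.7, and so was lowest in neurons like Hes1 and Hes5, but highest in DP where those were highest in PP.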

How the data were processed

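5mC and 5hmC were measured by MeDIP and hMeDIP in sorted PP, DP, and neurons. Per the submitters' notes and the methods, the authors mapped reads with BWA (0.7.8-r455) on mm10, called peaks with SICER (1.1), merged peaks found in all replicates of a cell type, left out those overlapping repeats, and annotated the nearest gene with HOMER (4.7). The deposited level columns hold log2 of the mean normalised reads per cell type, made by the authors in DiffBind with TMM, so 1 value stands for the 3 replicates that the methods state, whose depth is unknown from the tables. The deposited expression columns hold a score per cell type from the authors' earlier RNA-seq, and the deposited distance is a score in bp. Deposited columns of folds and p-values between cell types were not used, and no test could be made from the mean levels alone.

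All peaks entered the medians and percentages, without a filter. Differences were later minus earlier cell type, centred on the median of all peaks. Peaks were shared when they overlapped by at least 1 bp. The members and lists were chosen with earlier results of these data known. Members with 4 or fewer peaks of a mark were described by all of them, others by the highest peak and the largest changes of each step, and listed pathway genes where a peak or expression differed at least 2-fold, with values for some. Gene spans and promoters came from RefSeq. The steps were tested on simulated data. Alternatives were no centring, a minimum of 2-fold, a mean level of at least 4, peaks inside or within 20 kb of a member, and a larger overlap. Python 3.11.15, pandas 2.3.3, numpy 2.4.6, and matplotlib 3.10.9 were used. Peak sequences were not analysed here. A gene of the pathway list that met the naming rule is not reported here.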

Additional observations from a re-analysis of the deposited data

How the results depend on the processing

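No replicate values were at hand, so no replicate could be left out. No paired analysis was possible because no test was made and each group has 1 sample. With a minimum of 2-fold, the 5mC peaks lower from PP to DP, from DP to neurons, and from PP to neurons numbered 0, 1, and 1 in place of 1, 2, and 3, and those higher from PP to neurons 0 in place of 1. For 5hmC, lower peaks then numbered 0, 1, and 1 in place of 1, 7, and 6, and higher peaks 4 from DP to neurons and 7 from PP to neurons in place of 7 and 12. Without centring, 6 5mC peaks were lower from DP to neurons, and the 5mC medians were -0.20 from DP to neurons and -0.22 from PP to neurons in place of -0.021 and -0.052. With a mean level of at least 4, 1 5mC peak was lower from DP to neurons, and 1, 3, and 7 5hmC peaks were higher in the steps and from PP to neurons in place of 4, 7, and 12, with 5hmC medians of -0.012 and -0.051 in the steps in place of 0.093 and 0.058. With peaks inside or within 20 kb of a member, 0 5mC peaks were lower from PP to DP, and 3 and 2 5hmC peaks were lower from DP to neurons and from PP to neurons, with 5hmC medians of 0.20 and 0.26. The filters leave fewer peaks by construction. The filter on mean level left out the peaks with the largest 5hmC gain in Notch3, Jag1, and Jag2 (mean levels of 2.64, 3.60, and 3.74). It also left out the Notch3 5mC peak with the largest decrease (3.74). Leaving out the Notch3 peak at the floor, chosen after seeing the data, moved none of the 6 medians by 0.1 or more, but turned the 5hmC median from DP to neurons to -0.013. With an overlap of most of the shorter peak, 2 loci were shared in place of 3.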
